A study of Mus musculus with 162 samples.

Results

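Hair is built from keratins and from keratin-associated proteins (KAPs), and the transcripts of these genes were followed in cheek skin of mice treated with MC903 or with its vehicle. The genes were chosen by name: protein-coding genes whose symbol starts with Krtap, together with Krt25 to Krt28, Krt31 to Krt36, Krt71 to Krt75 and Krt81 to Krt86 where the count lists hold them, with at least 10 counts over the skin libraries. Of 46078 genes listed, 76 were members, 20 keratins and 56 KAP genes, and no gene of the rule in the lists fell under the minimum.

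RNA from skin, trigeminal ganglia and spinal cord was sequenced in a mouse model of atopic dermatitis, in which MC903 (calcipotriol), a vitamin D analogue, is applied to the skin. Adult male C57BL/6 mice, 8 to 12 weeks old per the study's methods, had 20 µL of 0.2 mM MC903 in ethanol, or ethanol without MC903, put on the shaved cheek each day. Uninjected wild-type mice gave 4 MC903 and 4 ethanol skin libraries at 6 hours after the first treatment (day 1), 3 and 2 at day 2, 3 and 3 at day 5, and 5 and 6 at day 8. The day 8 libraries carry 2 styles of label, called cohort A (3 MC903 and 3 ethanol) and cohort B (2 and 3) here, and what the styles stand for is not given. At day 8, wild-type mice injected with PBS gave 2 MC903 and 3 ethanol libraries, and wild-type mice injected with 250 µg of the antibody aGr1, which depletes neutrophils, gave 4 and 4. BLT1.KO mice, named for BLT1, a receptor for leukotriene B4, gave 3 and 3 libraries at day 8. TSLPR.KO mice, which carry a deletion of Crlf2, the TSLP receptor gene, gave 3 and 2 at day 8 and 4 and 3 at day 12. Injected mice were wild-type and knockout mice were not injected. The stage of the hair cycle is not given, and the labels do not say which animal each library came from, so that p-values measure the spread between these libraries.

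In a growing follicle (anagen), matrix cells at the base divide and fill with keratin filaments. Type I and type II hair keratins pair into the filaments of the hair shaft, and KAPs pack around them and crosslink them through cysteines. The inner root sheath, which surrounds the shaft as it forms, makes its own keratins, among them Krt25 and Krt27 of type I and Krt71 and Krt73 of type II, while Krt75 marks the companion layer at the outside of the inner root sheath. Follicles that regress (catagen) or rest (telogen) form no new shaft, and in mice neighbouring follicles tend to pass through these stages together.

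The sequence just before the start of transcription is shown for 6 members, 2 inner root sheath keratins, 2 type I hair keratins, 1 high glycine-tyrosine KAP and 1 ultra-high sulphur KAP, because most promoters in the family share the element in capitals. The sequences are RefSeq (GRCm38.p6), 150 bases up to the start, all on the minus strand and written 5′ to 3′. Capitals mark the letters TATAAA, the core of a TATA box, and in Krt34 also CTTTGAA, the letters to which LEF1, a Wnt effector of the hair matrix, is known to bind.
Krt25, chr11:99322952-99323101: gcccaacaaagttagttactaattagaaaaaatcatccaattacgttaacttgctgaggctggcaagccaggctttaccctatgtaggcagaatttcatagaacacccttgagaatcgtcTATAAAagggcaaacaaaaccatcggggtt
Krt71, chr15:101743098-101743247: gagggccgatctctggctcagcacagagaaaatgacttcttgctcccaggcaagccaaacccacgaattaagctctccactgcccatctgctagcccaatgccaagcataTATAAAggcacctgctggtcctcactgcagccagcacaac
Krt31, chr11:100050552-100050701: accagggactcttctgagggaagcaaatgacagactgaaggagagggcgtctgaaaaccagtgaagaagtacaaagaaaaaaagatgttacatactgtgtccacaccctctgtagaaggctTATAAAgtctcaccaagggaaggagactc
Krt34, chr11:100041555-100041704: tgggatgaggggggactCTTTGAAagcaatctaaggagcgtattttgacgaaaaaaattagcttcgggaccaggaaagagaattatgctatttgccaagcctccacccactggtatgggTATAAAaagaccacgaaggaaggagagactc
Krtap8-1, chr16:89487953-89488102: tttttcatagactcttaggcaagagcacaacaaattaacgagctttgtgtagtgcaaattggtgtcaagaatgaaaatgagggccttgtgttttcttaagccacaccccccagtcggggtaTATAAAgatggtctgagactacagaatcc
Krtap4-1, chr11:99628240-99628389: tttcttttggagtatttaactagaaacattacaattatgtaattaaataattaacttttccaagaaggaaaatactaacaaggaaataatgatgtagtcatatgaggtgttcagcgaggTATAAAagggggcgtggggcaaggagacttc
Both strands of the 300 bases from 250 before to 50 after the start were searched in the 66 members that RefSeq promoters could be matched to. TATAAA was found in 54 of the 66 (81.82%), against 13.62% of all 32851 promoters. It was present in 7 of 7 inner root sheath keratins and absent from the window of Krt75. CTTTGAA was found in 14 of 66 (21.21%, against 5.14% of all promoters), in 4 of the 5 type I hair keratins with a promoter, 7 of 19 high sulphur KAPs and 0 of 17 ultra-high sulphur KAPs. AGGTCA, a letter string bound by nuclear receptors such as the vitamin D receptor, was in 7 of 66 (10.61%, against 16.26%), 5 of them ultra-high sulphur KAPs. None of the 3 strings holds another, and a match of letters is not evidence that a factor binds there.

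The members fall into 7 groups by role and protein composition. There were 7 inner root sheath keratins, Krt75, 7 type I hair keratins and 5 type II hair keratins. The KAPs were divided by the translated coding sequence into 20 ultra-high sulphur KAPs (30% cysteine or more), 15 high glycine-tyrosine KAPs (35% glycine and tyrosine or more) and 21 high sulphur KAPs, the remainder. Median cysteine content was 37.8% in the ultra-high sulphur KAPs, 20.1% in the high sulphur KAPs and 8.05% in the high glycine-tyrosine KAPs, against 1.73% in the inner root sheath keratins and 6.93% in the type I hair keratins. Cysteine was read first, so that Krtap5-2, Krtap5-3, Krtap28-10 and Krtap28-13, with 35.97% to 42.03% glycine and tyrosine, count as ultra-high sulphur. Of the high sulphur KAPs, Krtap7-1 (29.9% glycine and tyrosine) lies nearest below the other limit. The genes lie in clusters, 34 on chromosome 11, 24 on chromosome 16, 9 on chromosome 15, 5 on chromosome 7, and 2 each on chromosomes 1 and 10.

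Many of these genes resemble each other, which bears on how reads of 50 bases could be assigned. Of the 76 members, 17 shared no stretch of 50 bases with another gene, 32 shared over 10% of theirs, and Krtap4-13 (81.3%) and Krtap5-1 (54.3%) shared over 50%. Proteins of 10 members, among them Krtap4-1 and Krtap4-2, Krtap31-1 and Krtap31-2, and Krtap6-5, were at least 95% identical to another member, so counts of single genes among them are uncertain. In all, 7 members overlap another gene. Krt75 overlaps Gm44460, Krt32 overlaps Gm11571, Krtap24-1 overlaps Gm49688 and Krtap15 overlaps Krtap14, each on the opposite strand. Krtap15 also overlaps 4930553J12Rik on its own strand, and Krtap14 overlaps 4930553J12Rik on the opposite strand. Krtap10-4 overlaps Tspear and Gm2696 on the opposite strand, and Krtap12-1 overlaps Tspear on its own strand. Since the strand setting of the counting is not given, reads from partners on opposite strands cannot be told apart.

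In the 61 skin libraries described here, counts on genes ran from 17431296 to 67342879, with a median of 28927563. Krt5 and Krt14, the defining keratins of the basal epidermis, summed to 1183 to 19239 cpm in them. The 9 skin libraries labelled wild-type day 12 were left out, since Krt5 and Krt14 summed to only 0.758 to 1.56 cpm in 6 of them (4274 to 14336 in the other 3). Cpm, the unit of level, is the count of a gene scaled to a fixed library total after TMM scaling over the 61 libraries. The sums of Krt5 and Krt14, and all levels in ganglion and spinal cord libraries, are cpm without TMM scaling. Crlf2 was at 0.0604 to 0.263 cpm in TSLPR.KO skin at day 8 and at 0.563 to 1.52 at day 12, against 2.24 to 12.2 in uninjected wild-type skin at day 8. Ltb4r1, which encodes BLT1, was at 2.32 to 15.4 cpm in BLT1.KO skin, which overlaps 6.66 to 79.9 in wild-type skin, and its counts alone do not separate the genotypes.

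The 76 genes together made up 0.00739% to 10.6% of all gene counts in a skin library. Their summed level ran from 73.4 to 110670 cpm, a 1507-fold range with a median of 13444. Both ends of the range were ethanol libraries, the lowest from a BLT1.KO mouse and the highest from an uninjected wild-type mouse at day 8. MC903 libraries ran from 132.4 to 77148 cpm, within the ethanol range. In uninjected wild-type skin the ethanol libraries alone held 69667, 22858, 21147 and 37124 cpm at day 1, 20546 and 15309 at day 2 and 1900.3, 897 and 12570.0 at day 5. At day 8 they held 110670.0, 43003 and 82487 cpm in cohort A and 48718, 56449 and 31238 in cohort B. Ethanol-treated skin was thus high at days 1 and 8 and low in all but 1 library at day 5, and those of day 5 differed by 14.01-fold. Libraries also differed within the other groups, where ethanol libraries held 35432, 5892 and 52320.0 cpm with PBS, 8064, 615, 20714 and 10991 with aGr1, 73.4, 1199.8 and 207 in BLT1.KO mice, 11429 and 77174 in TSLPR.KO mice at day 8 and 8852, 28967 and 39679 at day 12. Levels in ethanol-treated skin were not tested between days or groups.

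**Figure D1:**
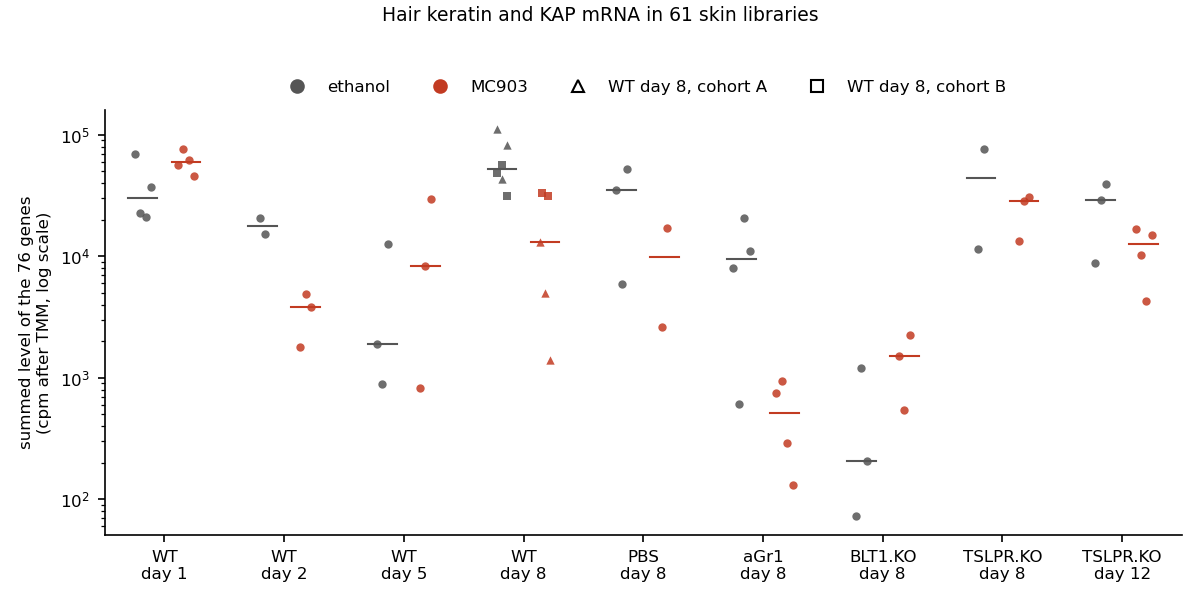
Summed level of the 76 hair keratin and KAP genes in each of 61 skin libraries (cpm after TMM scaling, log axis) by day, genotype and injection, with ethanol in grey and MC903 in red. Triangles and squares are cohorts A and B of wild-type day 8, and bars are medians. Libraries of 1 group lie up to more than 10-fold apart, from 73.4 to 110670 cpm in all.

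A single gene of the family varied far more between libraries of 1 group than genes in general did. The SD of log2(cpm + 0.5) around the group means had a median of 1.53 over the members, against 0.255 over 30743 genes. All but 1 of the 76 members, 75 of them, lay above 0.575, the 95th percentile of all genes. Against the 4693 genes with a mean level at or above the lower quartile of the members, whose median was 0.243 and 95th percentile 0.607, the number above was again 75. These 4693 genes include most members. The 99th percentile of all genes was passed by 71 members, but that of the 4693 genes by only 1. Some other genes of like level thus varied more than nearly all members. The spread was as large in ethanol libraries alone (median 1.51) as in MC903 libraries (1.53). Krtap19-3 (2.06), Krtap21-1 (2.06) and Krtap6-2 (1.95), all high glycine-tyrosine KAPs, varied most. Krtap13 (0.131), which had only 62 counts over the skin libraries, Krt75 (0.764) and Krtap29-1 (0.867) varied least. By group the medians were 1.84 for high glycine-tyrosine KAPs, 1.74 for type II and 1.61 for type I hair keratins, 1.54 for high sulphur KAPs, 1.53 for inner root sheath keratins and 1.40 for ultra-high sulphur KAPs.

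**Figure D2:**
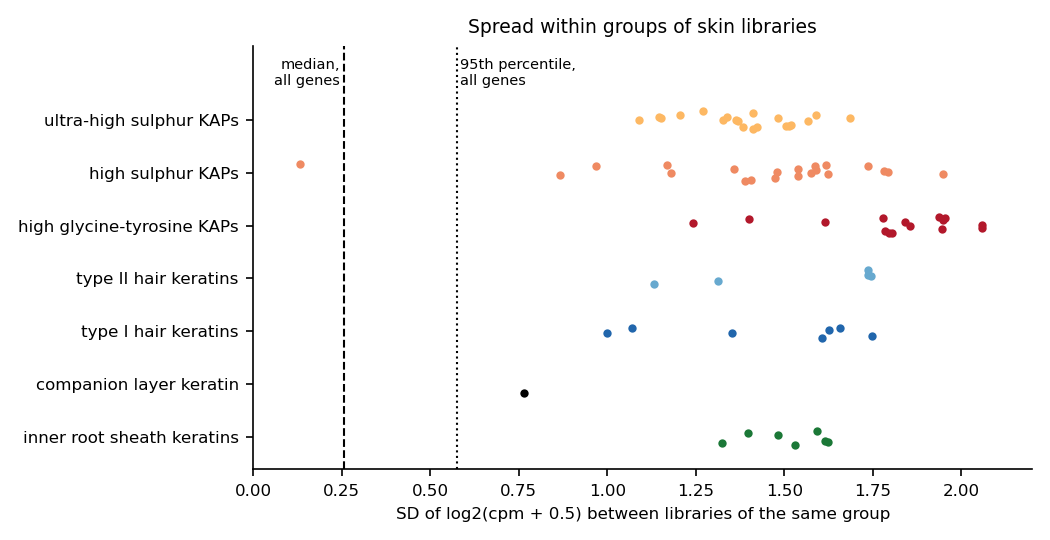
Spread of each member between libraries of the same group (SD of log2(cpm + 0.5), x axis), by member group (y axis). The dashed and dotted lines are the median (0.255) and the 95th percentile (0.575) over all 30743 genes, and every member but Krtap13 lies to the right of the dotted line.

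The members moved together from library to library. Across the 61 libraries, the deviations of 2 members from their group means had a median Pearson r of 0.894 over 2850 pairs (0.897 without Krtap13), a description in which the points share libraries and scaling. Within the high glycine-tyrosine KAPs the median was 0.958 and within the inner root sheath keratins 0.964. Values for Krt75 were lower, with medians of 0.485 with the high glycine-tyrosine KAPs and 0.751 with the inner root sheath keratins. Because these are bulk libraries, fewer cells of a type and less RNA per cell cannot be told apart in any of these levels.

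Inner root sheath keratins were the most counted members. Krt27 (ENSMUSG00000017588, chr11:99345565-99351104) took 8.18% of all counts on members, Krt71 (ENSMUSG00000051879, chr15:101733949-101743109) 7.64% and Krt25 (ENSMUSG00000035831, chr11:99315516-99322951) 7.25%. Mean levels were 1836 cpm for Krt27, 1737 for Krt71 and 1628 for Krt25. Per kilobase of exon the short KAP genes came first, with 1707 cpm per kilobase for Krtap8-1 (ENSMUSG00000059632, chr16:89487379-89487952) and 1538 for Krtap21-1 (ENSMUSG00000058368, chr16:89403218-89403868), against 1185 for Krt27, 819 for Krt25 and 795 for Krt71. The cortex keratin Krt34 stood at 592 cpm per kilobase. All of these means run over libraries with the wide spread given above, and they were not tested against each other.

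The share of Krt75 in the family was larger where the summed level was low. In ethanol-treated wild-type skin at day 8, shaft transcripts (hair keratins and KAPs) summed to 1.97 to 3.31 times the inner root sheath keratins. Krt75 made up 0.767% to 1.01% of the summed level there. The shaft to sheath ratio did not follow the sum alone. It was 2.01 to 2.55 in the far lower BLT1.KO ethanol libraries and 0.364 to 1.75 in the aGr1 MC903 libraries. In the libraries with the lowest sums Krt75 took a far larger part, 61.3% in the lowest ethanol library (BLT1.KO) and 10.3% to 89.3% in the 4 aGr1 MC903 libraries. Since each share has the same sum below the line, a lower sum raises the share of any member that does not fall with it.

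**Figure D3:**
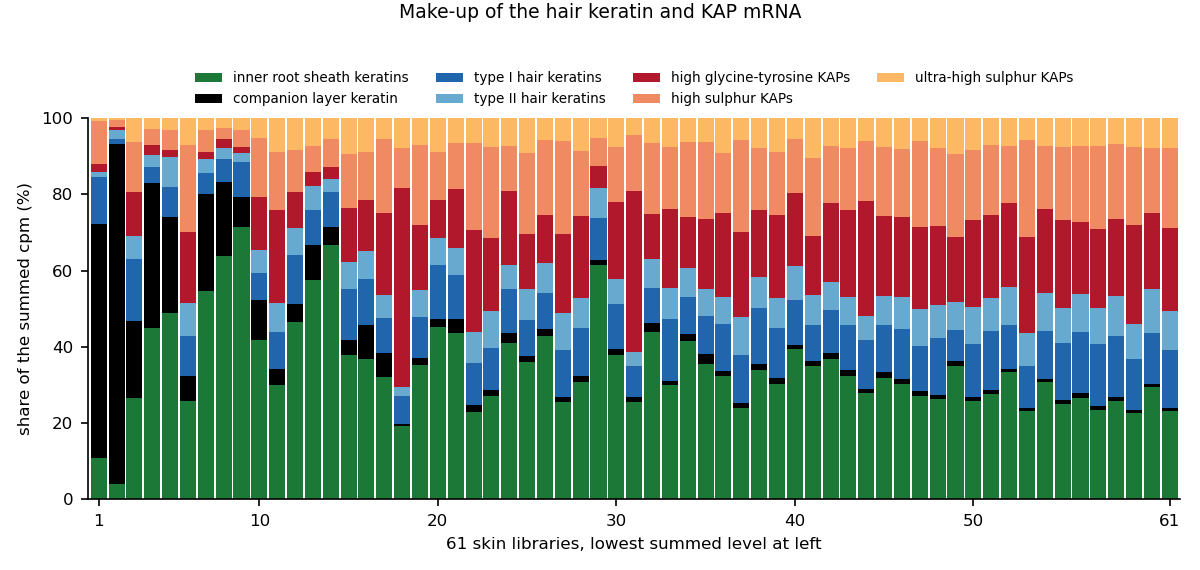
Share of the summed cpm (y axis, percent) taken by each of the 7 member groups in the 61 skin libraries, ordered from the lowest summed level (left) to the highest. Krt75 (black) reaches 61.3% and 89.3% in the 2 lowest libraries, and sheath keratins and shaft genes share nearly all of the rest.

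At 6 hours after the first treatment, 13 of 76 members were higher with MC903 and 0 were lower (edgeR quasi-likelihood test, adjusted p under 0.05) by 0.67 to 1.05 on the log2 scale. Of all genes tested, 5.51% were higher and 7.47% lower. Fold changes of 75 of the 76 members lay above 0 on the log2 scale, with a median of 0.72 against 0.00 over all genes, and 33 had an unadjusted p under 0.05. The 13 were Krt32 and Krt82, 8 of 20 ultra-high sulphur KAPs and 3 of 21 high sulphur KAPs, while 0 of 7 inner root sheath keratins and 0 of 15 high glycine-tyrosine KAPs passed. Krt32 (ENSMUSG00000046095, chr11:100080848-100088226), a type I keratin of the hair cuticle, was at 138, 68.5, 78.5 and 101 cpm in the ethanol libraries and 201, 194, 176 and 159.8 with MC903. The MC903 libraries all lay above the highest ethanol library, and the log2 fold change (± SE) was 0.93 ± 0.19, adjusted p = 0.0136. Krtap5-3, an ultra-high sulphur KAP, was at 10.7, 14.6, 10.2 and 13.5 cpm with ethanol and 28.9, 26.8, 19.8 and 19.9 with MC903 (0.96 ± 0.17, adjusted p = 0.00729), again without overlap. Krtap28-10 (0.91 ± 0.17, adjusted p = 0.009), Krtap28-13 (0.83 ± 0.18, adjusted p = 0.0171), Krtap5-2 (0.85 ± 0.20, adjusted p = 0.0242) and Krt82 (0.86 ± 0.21, adjusted p = 0.0251), a cuticle keratin of type II, rose by a like amount, each without overlap.

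The abundant members did not pass at day 1. Krt25 was at 3487, 1608, 1809 and 2282 cpm with ethanol and 3104, 4305, 3506 and 2870.3 with MC903 (0.60 ± 0.24, adjusted p = 0.123). Ethanol replicate 1 lay above 2 of the MC903 libraries for Krt25, while the other 3 ethanol libraries lay below all of them. Without that replicate 67 members were higher with MC903, and without MC903 replicate 1, 2 or 3 or ethanol replicate 2 or 3 the number was 3 to 6. Of the 15 other genes of the hair shaft and matrix, 3 rose (Lef1, Padi1 and Padi3). Markers of other compartments moved as well: the 8 genes of the bulge and germ, where follicle stem cells sit, were all lower with MC903 (1513 to 2309.8 cpm summed with ethanol, 559.6 to 714 with MC903), as were 4 of 6 leukocyte genes (98.2 to 201 and 79.5 to 85.2 cpm) and 2 of 7 skeletal muscle genes (6414 to 10190.0 and 3883 to 7087 cpm). No gene of these lists was at 0 in a library, and their part in the rise was not tested.

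At day 2 no member passed, although nearly all separated the groups. With 3 MC903 and 2 ethanol libraries edgeR called 0 of 75 members, while 59 had an unadjusted p under 0.05. DESeq2 called 33 members, all lower, and 280 of all genes. No gene at all passed in edgeR (0% higher and 0% lower of 24580). The fold changes of all 75 members lay below 0, with a median of -2.49 against 0.09 over all genes, and for 73 of them every MC903 library lay below both ethanol libraries, as it did for 11.5% of all genes (10.4% were higher without overlap). The summed level was 1798, 4922 and 3850.5 cpm with MC903. Krt31 (ENSMUSG00000048981, chr11:100046646-100050551), a type I keratin of the hair cortex, was at 319 and 298 cpm with ethanol and 19.5, 89.9 and 27.1 with MC903 (-2.75 ± 0.68, adjusted p = 0.659). Krtap8-1 was at 619.9 and 541 cpm against 36.6, 111 and 92.8 (-2.86 ± 0.52, adjusted p = 0.369), and Krt25 at 1586 and 1196 against 301, 564 and 211 (-1.95 ± 0.54, adjusted p = 0.777). The groups did not overlap for any of the 3. The MC903 libraries also differed in make-up, with shaft to sheath ratios of 0.426, 1.17 and 4.17. Bulge and germ genes summed to 346 to 794 cpm with MC903 and 1814 to 1928 with ethanol, and pigment genes to 84.7 to 114.1 and 216 to 239, and their part was not tested.

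At day 5 no member passed either, and the fold changes lay above 0. All 75 members tested lay above 0, with a median of 1.64 against -0.03 over all genes. No member passed in edgeR (8.15% of all genes were higher and 6.78% lower), and 4 had an unadjusted p under 0.05. DESeq2 called 1 member and 5274 of all genes. The single libraries overlapped widely: the summed level was 1900.3, 897 and 12570.0 cpm with ethanol and 827, 8308 and 29879 with MC903. Of 3 libraries each, 1 with ethanol and 2 with MC903 stood far above the lowest of their group, and no member separated the groups. The direction rested on single libraries: the median was 0.18, with 46 members above and 29 below 0, without MC903 replicate 3, and 3.44 without ethanol replicate 3. Median log2 fold changes were 3.21 for high glycine-tyrosine KAPs and 0.60 for inner root sheath keratins. Krtap21-1, a high glycine-tyrosine KAP, was at 73.2, 4.07 and 228 cpm with ethanol and 5.46, 514 and 1585 with MC903 (2.81 ± 1.68, adjusted p = 0.302). Krt75 came nearest to a call (74.8, 71.2 and 163 cpm against 161, 221 and 420.0, 1.39 ± 0.44, adjusted p = 0.0695). Skeletal muscle genes were lower in 4 of 7 cases (10571 to 20674 cpm with ethanol, 3916 to 7581 with MC903), and adipocyte genes in 5 of 6, and their part was not tested.

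At day 8 of uninjected wild-type skin, 41 of 76 members were lower with MC903 and 0 were higher, where 11.2% of all genes were lower and 12.2% higher. All 76 fold changes lay below 0, with a median of -2.19 against -0.03 over all genes, 73 with an unadjusted p under 0.05. Of the keratins 16 of 20 passed and of the KAPs 25 of 56, and the difference between these shares was not tested. By group the calls were 6 of 7 inner root sheath keratins, 5 of 7 type I and 5 of 5 type II hair keratins, 10 of 15 high glycine-tyrosine KAPs, 6 of 21 high sulphur KAPs and 9 of 20 ultra-high sulphur KAPs. Group medians lay close together, from -1.85 for inner root sheath keratins to -2.58 for type II hair keratins, and Krt75 was at -0.95 ± 0.45, adjusted p = 0.148. For 25 of the 76 members the MC903 libraries all lay below the lowest ethanol library, as they did for 5.3% of all genes (6.9% were higher without overlap).

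Both sheath and shaft genes fell at day 8. The 6 ethanol libraries had 1955, 4824 and 6294 cpm of Krt25 (lowest, median and highest), and the MC903 libraries had 1371, 588, 179, 2453 and 2584 in order of cohort A and then cohort B (-1.74 ± 0.54, adjusted p = 0.035). The 3 cohort A libraries with MC903 lay below all ethanol libraries, and the 2 of cohort B lay above the lowest of them. Krt27 (-1.85 ± 0.57, adjusted p = 0.0322) and Krt73 (-1.81 ± 0.52, adjusted p = 0.024) fell with it, whereas Krt71 was at -1.56 ± 0.59, adjusted p = 0.0728. Among shaft keratins, Krt31 went from 492, 853 and 1984 cpm (lowest, median and highest) to 208, 78.2, 24.2, 565 and 462 (-2.23 ± 0.71, adjusted p = 0.0381). Krt35 (ENSMUSG00000048013, chr11:100092193-100096241), which begins in the matrix and precortex, had 372, 555 and 889.6 cpm with ethanol and 159, 72.7, 24.6, 326 and 247 with MC903 (-2.04 ± 0.52, adjusted p = 0.0136), with no overlap.

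The smallest p-values at day 8 belonged to less abundant members. Krt32 had 80.7, 148 and 198 cpm with ethanol (lowest, median and highest) and 51.9, 24.3, 9.05, 76.2 and 56.2 with MC903 (-1.79 ± 0.43, adjusted p = 0.0096). Krt36 (-2.25 ± 0.54, adjusted p = 0.00996), Krtap29-1 (-1.89 ± 0.47, adjusted p = 0.011), Krt82 (-1.87 ± 0.46, adjusted p = 0.0112) and Krtap5-2 (-2.01 ± 0.52, adjusted p = 0.0133) followed. Groups did not overlap for any of these but Krtap5-2. Krt86 (-2.58 ± 0.81, adjusted p = 0.0357), a type II hair keratin that shares 43.3% of its 50-base stretches with other genes, and Krtap21-1 (-2.19 ± 0.68, adjusted p = 0.0344) also fell. Several other KAPs had fold changes of like size and did not pass: Krtap8-1 was at -2.20 ± 0.83, adjusted p = 0.0732, Krtap15 at -2.46 ± 0.96, adjusted p = 0.0822, Krtap7-1 at -2.31 ± 0.84, adjusted p = 0.0651, Krtap4-1 at -2.34 ± 0.84, adjusted p = 0.0616 and Krtap4-2 at -2.38 ± 0.87, adjusted p = 0.065. Krt33a, of the cortex, also stayed short of the threshold (-2.14 ± 0.75, adjusted p = 0.0546).

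The 2 cohorts of day 8 are given apart, and the difference between them was not tested. Cohort A alone gave 75 of 75 members lower with a median log2 fold change of -3.79, where 8.68% of all genes were lower and 8.85% higher. Cohort B alone gave 8 of 76 lower with a median of -0.50, where 4.11% of all genes were lower and 5.25% higher. The summed levels with MC903 were 13129, 4948 and 1409 cpm in cohort A and 33420.0 and 31628 in cohort B. With all 11 libraries, the number called was 13 or 11 without either of the 2 cohort A MC903 libraries numbered 1, 23 without 1 of the 2 cohort A ethanol libraries numbered 3, and 67 without cohort B ethanol replicate 3.

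Other genes of the follicle moved with the members at day 8. Of 15 other shaft and matrix genes, 11 were lower and 0 higher (summed 7858 to 48455 cpm with ethanol and 3252 to 13150.0 with MC903). They included the matrix regulators Lef1 (-1.94 ± 0.39, adjusted p = 0.00361), Shh (-1.89 ± 0.35, adjusted p = 0.00202), Hoxc13 (-1.65 ± 0.47, adjusted p = 0.0225) and Foxn1 (-1.44 ± 0.41, adjusted p = 0.0232), the last known to act on hair keratin genes, and the sheath protein trichohyalin, Tchh (-2.18 ± 0.55, adjusted p = 0.0121). Of 9 pigment genes, 8 were lower (251 to 469 and 132.8 to 239.8 cpm), and of 8 bulge and germ genes 4 were lower. Outside the follicle, 6 of 6 leukocyte genes were higher (71.4 to 131.4 and 176 to 323 cpm), 7 of 7 muscle genes lower (3563 to 14952 and 1989 to 3632 cpm), and the 5 epidermal genes summed to 5234 to 7096 and 10332 to 23026 cpm with Krt1 and Krt14 higher and Krt10 and Lor lower. No gene of these lists was at 0 in any of these libraries, and the part of tissue make-up in the fall of the members was not tested.

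**Figure D4:**
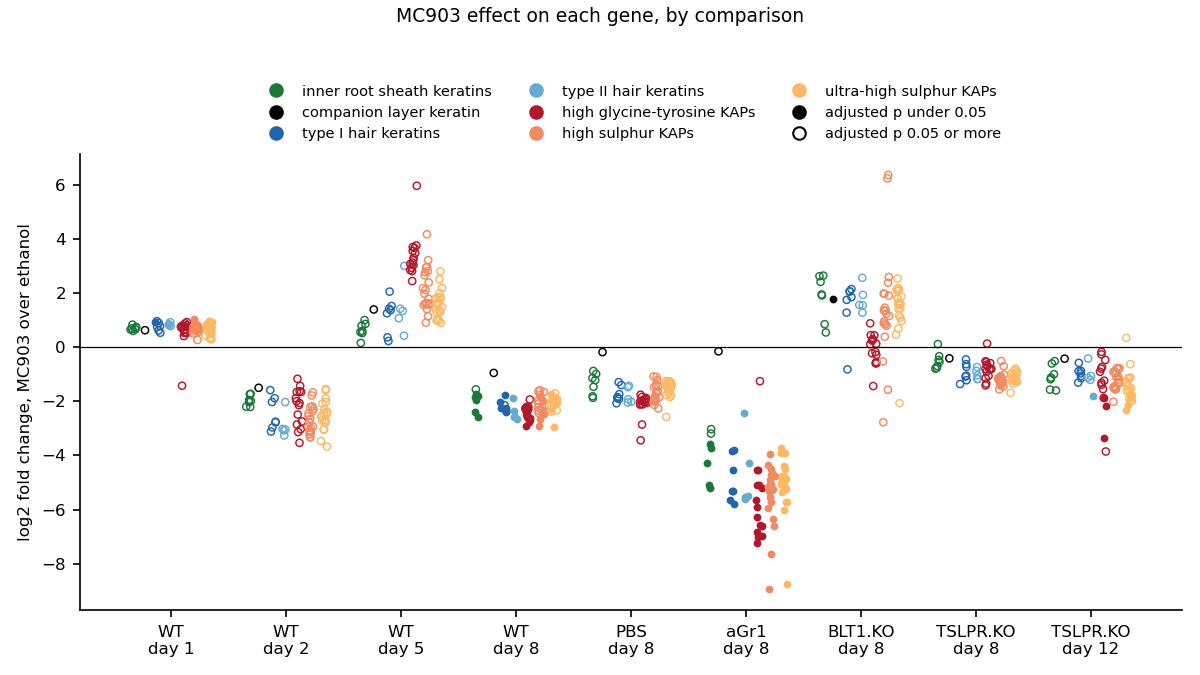
Log2 fold change of each member (MC903 over ethanol, y axis) in the 9 comparisons, coloured by member group. Filled points had an adjusted p under 0.05 in edgeR and open points did not. Points lie above 0 at day 1 (75 of 76 members) and day 5, below 0 at days 2 and 8 of uninjected wild-type skin and lowest with aGr1 (median -5.10), Krt75 (black) is the filled point in BLT1.KO mice, and the 2 points over 6 there are Krtap27-1 and Krtap29-1, whose fitted values depend on the prior count.

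In PBS-injected wild-type mice, the comparison that matches the injection of aGr1, no member passed at day 8. All 75 fold changes lay below 0 (median -1.76 against -0.01 over all genes), and 2 had an unadjusted p under 0.05. In edgeR 3.26% of all genes were higher and 0.721% lower. DESeq2 called 2 members and 2116 of all genes. The summed level was 35432, 5892 and 52320.0 cpm with ethanol and 2599.5 and 17036 with MC903. Ethanol replicate 2 lay below 1 of the 2 MC903 libraries. Krt31 was at 636, 82.6 and 767 cpm with ethanol and 30.5 and 238 with MC903 (-1.85 ± 1.13, adjusted p = 0.463). Without that ethanol library 3 members were lower, the median was -2.23 and 58 had an unadjusted p under 0.05. The median was -0.97 without MC903 replicate 1 and -3.70, with 65 at an unadjusted p under 0.05, without MC903 replicate 2.

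With aGr1, shaft transcripts were far lower in MC903-treated skin. Of 75 members tested, 71 were lower with MC903 and 0 higher, against 17.5% lower and 15.1% higher of all genes. The median log2 fold change was -5.10 (-0.02 over all genes), and 73 had an unadjusted p under 0.05. The summed level was 8064, 615, 20714 and 10991 cpm with ethanol and 745, 942, 289 and 132.3 with MC903, so that ethanol replicate 2 lay within the MC903 range and the others above it. All 12 hair keratins passed, as did 54 of 55 KAPs, with the exception of Krtap20-2. Of the 7 inner root sheath keratins 5 passed, and Krt25 (-3.03 ± 1.20, adjusted p = 0.0816) and Krt71 (-3.19 ± 1.21, adjusted p = 0.0714) did not. Medians were -5.89 for high glycine-tyrosine KAPs, -5.51 for type II and -5.30 for type I hair keratins, -5.21 for high sulphur and -4.91 for ultra-high sulphur KAPs, and -3.73 for inner root sheath keratins.

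Krt31 was at 128.7, 8.70, 377 and 192 cpm in the 4 ethanol libraries with aGr1 and at 4.92, 11.2, 1.31 and 0 with MC903 (-5.32 ± 1.33, adjusted p = 0.0148). Krtap8-1 went from 408, 27.2, 1173 and 652 cpm to 9.39, 32.4, 3.05 and 0.143 (-5.65 ± 1.48, adjusted p = 0.018), and Krtap15 from 346, 23.4, 984 and 528 to 0.745, 17.7, 0.422 and 0.0951 (-6.63 ± 1.71, adjusted p = 0.0166). For Krt31 and Krtap8-1 MC903 replicate 2 lay above ethanol replicate 2, and 22 members had no overlap, where 16.1% of all genes were lower and 16% higher without overlap. Krt27 (-3.59 ± 1.20, adjusted p = 0.0463), Krt73 (-3.73 ± 1.20, adjusted p = 0.0404), Krt35 (-4.54 ± 1.16, adjusted p = 0.0163), Krt82 (-4.27 ± 1.01, adjusted p = 0.0112), Krt86 (-5.51 ± 1.39, adjusted p = 0.0154) and Krtap4-1 (-5.34 ± 1.23, adjusted p = 0.0102) fell as well. Krt75 did not pass: it was at 120.3, 41.5, 257 and 153 cpm with ethanol and 189, 97.3, 110.2 and 118.2 with MC903 (-0.16 ± 0.45, adjusted p = 0.824), and in the library with the lowest sum (MC903 replicate 4) it stood at 118.2 cpm beside 0 cpm of Krt31 and 1.52 of Krt25.

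The smallest p-values with aGr1 came from KAPs that were close to absent with MC903. Krtap9-5 (ENSMUSG00000078255, chr11:99948475-99949551), an ultra-high sulphur KAP, had 613 counts over the ethanol libraries and 1 with MC903, a ratio of 704 with a 95% counting interval of 125.9 to 27854. Krtap31-2 had 1142 and 2 counts (656, interval 181 to 5422), and Krtap5-1 had 207 and 3 (79.3, interval 26.7 to 387). These exact intervals cover counting error only, not the spread between libraries. Krtap31-1 (14.4, 0.712, 37.7 and 18.2 cpm and 0, 0.261, 0 and 0.0476; -7.63 ± 1.28, adjusted p = 0.00228) and Krtap19-1 (-7.22 ± 1.30, adjusted p = 0.00312) also passed without overlap. Adjusted p was 0.0013 for Krtap9-5, 0.00154 for Krtap31-2 and 0.00194 for Krtap5-1.

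Among the other shaft and matrix genes with aGr1, 11 of 15 were lower and 1, Tgm3, a transglutaminase also made in epidermis, was higher (282 to 6684 cpm summed with ethanol and 2233 to 2680.1 with MC903). Lef1 (-2.65 ± 0.42, adjusted p = 0.00159) and Shh (-2.91 ± 0.73, adjusted p = 0.0145), which had 0 counts in at least 1 MC903 library, fell, while Hoxc13 (-1.28 ± 0.57, adjusted p = 0.117) and Foxn1 (-1.45 ± 0.54, adjusted p = 0.0695) did not pass. None of the 9 pigment genes passed (22.3 to 159 and 74.1 to 155 cpm, with Oca2, Slc45a2 and Gpr143 at 0 in an ethanol library). Adipocyte genes were lower in 6 of 6 cases (939 to 2238 and 362 to 629 cpm) and muscle genes in 4 of 7 (11079 to 16855 and 6269 to 9786 cpm), none at 0. Bulge and germ genes were lower in 3 of 8 cases (Cd34, Krt15 and Lhx2; 838 to 1509 and 447 to 655 cpm). Of the leukocyte genes Ptprc and Coro1a were lower and Tyrobp was higher. Ethanol replicates 1 and 2 stood apart in the summed leukocyte genes, with 682 and 507 cpm against 162 to 299 cpm in the other 6 libraries, and 67 and 73 members were lower without each of them. The part of these cell types in the fall of the members was not tested.

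**Figure D5:**
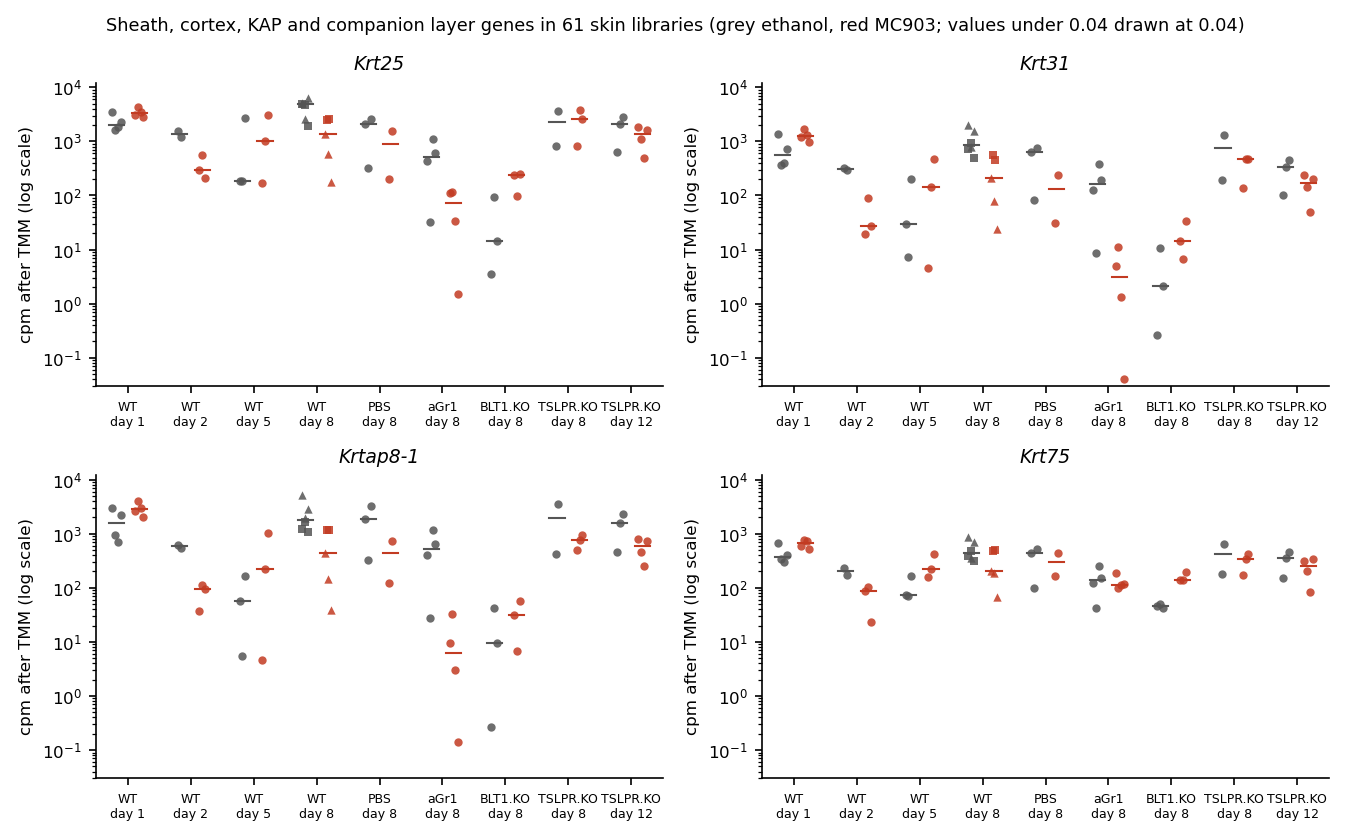
Level of Krt25 (inner root sheath), Krt31 (cortex), Krtap8-1 (high glycine-tyrosine KAP) and Krt75 (companion layer) in each of 61 skin libraries (cpm after TMM scaling, log axis; values under 0.04 are drawn at 0.04), grey for ethanol and red for MC903, with bars at medians and triangles and squares for cohorts A and B. Krt31 ranges from 0 cpm with aGr1 and MC903 upwards, whereas Krt75 stays between 22.8 and 848 cpm in all libraries.

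In BLT1.KO skin at day 8 the family was low with either treatment. The summed level was 73.4, 1199.8 and 207 cpm with ethanol and 1513, 549 and 2235 with MC903. All lay below the lowest ethanol library of uninjected wild-type skin at day 8 (31238 cpm), where MC903 libraries ran from 1409 to 33420 cpm. Single ethanol libraries of other wild-type groups were also low, at 897 cpm at day 5 and 615 cpm with aGr1. The difference in level between the genotypes was not tested. Between the treatments, Krt75 was the sole member called, higher with MC903, where 14.1% of all genes were higher and 14.6% lower. It was at 44.99, 50.4 and 42.2 cpm with ethanol and 138, 138 and 199 with MC903 (1.78 ± 0.17, adjusted p = 0.000141), without overlap. Of the 75 members tested, 63 had a fold change above 0 (median 1.36, -0.04 over all genes) and 6 an unadjusted p under 0.05.

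In BLT1.KO skin the median log2 fold change was 1.94 for inner root sheath keratins and 0.10 for high glycine-tyrosine KAPs, with no call in either group. Krt25 was at 3.59, 92.6 and 14.2 cpm with ethanol and 241, 99.1 and 249 with MC903 (2.41 ± 0.97, adjusted p = 0.101). Krt71 was at 0.841, 80.3 and 14.3 against 291, 70.5 and 236 (2.64 ± 1.20, adjusted p = 0.14), and Krtap21-1 at 0.546, 81.2 and 5.10 against 8.58, 0.670 and 85.9 (0.12 ± 1.66, adjusted p = 0.97). For Krt25 every MC903 library lay above the ethanol libraries, and for the other 2 ethanol replicate 2 lay among the MC903 libraries. Without that ethanol library 25 members were higher with MC903, with a median of 3.94. The shaft to sheath ratio was 2.01 to 2.55 with ethanol and 0.531 to 1.47 with MC903. For 2 members no ethanol library had a count, so their folds are lower bounds, taken against 3 counts over the group: Krtap27-1 (33 counts with MC903) was at least 10.98-fold higher and Krtap29-1 (29 counts) at least 9.65-fold higher. With both at their bounds the median over the members was again 1.36.

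Other follicle genes moved in both directions with MC903 in BLT1.KO skin, where 14.1% of all genes were higher and 14.6% lower. Of 15 shaft and matrix genes 5 were higher (Foxn1, Msx2, S100a3, Tchh and Tgm3; 105 to 961 cpm with ethanol and 2376 to 8037 with MC903), and 6 of 9 pigment genes were higher (29.7 to 43.6 and 151 to 215 cpm). Shh, Oca2, Slc45a2, Gpr143 and Slc24a5 were each at 0 in an ethanol library. Muscle genes were lower in 7 of 7 cases (21085 to 36380.0 and 3266 to 9039 cpm), adipocyte genes in 6 of 6 and bulge and germ genes in 4 of 8 (3026 to 3447 and 754 to 813 cpm). Their part in the change of the members was not tested.

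In TSLPR.KO skin at day 8 no member passed (1.3% of all genes were higher and 1.14% lower). The unadjusted count at p under 0.05 was 0 and DESeq2 called 0. The summed level was 11429 and 77174 cpm with ethanol and 13444, 28551 and 30794 with MC903, so the MC903 libraries lay between the 2 ethanol libraries. Of the 75 members, 73 had a fold change below 0 (median -1.08, 0.00 over all genes). Krt31 was at 189.8 and 1320.5 cpm with ethanol and 137, 465 and 479 with MC903 (-1.06 ± 0.71, adjusted p = 0.539). The direction rested on 1 ethanol library: without replicate 2 the median was 0.82 with 3 members higher, and without replicate 1 it was -1.86 with 11 lower.

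In TSLPR.KO skin at day 12, 7 of 75 members were lower with MC903 and 0 higher, where 4.62% of all genes were lower and 5.41% higher. The median was -1.24 (-0.02 over all genes), 74 fold changes lay below 0 and 40 had an unadjusted p under 0.05. The summed level was 8852, 28967 and 39679 cpm with ethanol and 16733, 10279, 4322 and 15129 with MC903, with ethanol replicate 1 among the MC903 libraries. The 7 were Krtap6-3, Krtap6-5 and Krtap22-2 of the high glycine-tyrosine KAPs, Krtap4-13, Krtap4-9 and Krtap1-3 of the ultra-high sulphur KAPs, and Krt84. Krtap6-3 (ENSMUSG00000057855, chr16:89084015-89084534) was at 36.5, 171 and 93.3 cpm with ethanol and 9.04, 5.23, 1.47 and 22.1 with MC903, without overlap (-3.37 ± 0.78, adjusted p = 0.0283). Krtap4-13 (-2.33 ± 0.56, adjusted p = 0.0323), most of whose 50-base stretches are shared, Krtap6-5 (-2.18 ± 0.53, adjusted p = 0.0329), Krtap22-2 (-1.90 ± 0.46, adjusted p = 0.0341) and Krtap4-9 (-2.13 ± 0.53, adjusted p = 0.0355) fell by less. Krt25 was at -0.52 ± 0.54, adjusted p = 0.6. The number called was 23 without ethanol replicate 1 and 0 to 4 without any 1 of the other 6 libraries. Pigment genes were higher in 4 of 9 cases (32.2 to 99.8 and 109 to 216 cpm) and muscle genes lower in 4 of 7, and their part was not tested.

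Whether the MC903 effect at day 8 differed between groups was tested as an interaction, each time against the same uninjected wild-type libraries, which the 3 tests share. The effect in BLT1.KO mice was higher than in wild-type mice for 9 of 76 members and lower for 0, where 4.35% of all genes were higher and 2.6% lower. The ethanol libraries started apart, with summed levels of 73.4, 1199.8 and 207 cpm in BLT1.KO mice and 31238 to 110670 in wild-type mice. Genotype and this lower starting level cannot be told apart. The median difference in effect was 3.58 on the log2 scale (0.01 over all genes), and 48 members had an unadjusted p under 0.05. The 9 were Krt75 (2.78 ± 0.65, adjusted p = 0.0161), Krt36 (4.20 ± 1.02, adjusted p = 0.0201), Krt82 (4.51 ± 1.13, adjusted p = 0.0228), Krt73 (4.48 ± 1.25, adjusted p = 0.0389), Krt25 (4.19 ± 1.17, adjusted p = 0.0392), Krt35 (4.14 ± 1.15, adjusted p = 0.039), Krtap24-1, Krtap5-3 and Krtap29-1. The value of Krtap29-1 (adjusted p = 0.00985) rests on BLT1.KO ethanol libraries at 0, so its fitted difference depends on the prior count and is not given. With cohort B alone as the wild-type reference 2 members differed, and leaving out 1 library at a time gave 2 to 37, the highest without BLT1.KO ethanol replicate 2 and the lowest without BLT1.KO MC903 replicate 3 or ethanol replicate 3. The number was also 18 without wild-type ethanol cohort B replicate 3 and 14 without BLT1.KO MC903 replicate 2, and 3 to 5 without BLT1.KO ethanol replicate 1, BLT1.KO MC903 replicate 1, wild-type ethanol cohort B replicate 2, or 1 of 4 cohort A libraries. In the same test the effect was higher for 10 of 15 other shaft and matrix genes and 7 of 9 pigment genes and lower for 4 of 7 sebaceous gland genes and 1 of 8 bulge and germ genes, and their part was not tested.

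For aGr1 the difference from uninjected mice had a median of -2.92 over 76 members (0.02 over all genes), and no member passed. Of all genes 3.36% had a lower and 1.2% a higher effect, and 40 members had an unadjusted p under 0.05. DESeq2 called 8 members, all lower, and 2515 of all genes. With PBS-injected mice as the reference the median was -3.44, again with 0 calls and 22 at an unadjusted p under 0.05. Leaving out aGr1 MC903 replicate 2 gave 10 calls and leaving out wild-type MC903 cohort A replicate 2 gave 2. The effect was lower for 3 of 6 leukocyte genes. For TSLPR.KO mice the median difference was 1.10 (0.05 over all genes) with 0 members called, 0 at an unadjusted p under 0.05 and 0 in DESeq2, where 0.0111% of all genes had a higher and 0.166% a lower effect. With cohort B as the reference the median was -0.53. That a fall passed in wild-type and not in TSLPR.KO skin therefore does not show a difference between them.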

How the data were processed

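Per the labels and the study's methods, the authors aligned 50-base reads of poly(A) RNA to mm10 with TopHat and Bowtie2 and counted them per gene with HTSeq. The methods list TopHat 2.1.1 and HTSeq 0.11.1, and the version of Bowtie2 is not given in the sources used here. The deposited values are raw counts, 1 list a library, and their tally lines (reads on no gene, 7.57% to 18.3%, among them) were left out. The methods name DESeq for the tests. Here edgeR 4.0.16 (R 4.3.3) was used: TMM scaling, genes with at least 10 counts over the libraries compared, the quasi-likelihood test, Benjamini-Hochberg adjustment over all genes tested and a threshold of 0.05, with a cohort term at wild-type day 8. Interactions were fitted over both genotypes or injections. Levels are cpm after 1 TMM scaling of 61 libraries, apart from sums of Krt5 and Krt14 and levels outside skin, which had no TMM scaling. Before logs of the spread, 0.5 was added. Alternatives were DESeq2 1.42.0, other scalings and filters, the cohorts alone, a replicate block and leaving out each library. The test was tried on simulated counts. Samples with the same number were not treated as paired. Of the comparisons with 3 or more pairs, none had every correlation of deviations over 0.1, and single values ran from -0.232 to 0.405. At wild-type day 2, with 2 pairs, both correlations were over 0.1 (0.171 and 0.136). With so few pairs, pairing is not settled in any comparison.

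The members, gene lists and tests were chosen with earlier results of these data known. Named genes were 16 members of set roles and, per comparison, up to 5 called members with the smallest p, plus the extremes of spread; Krt34, Krtap20-2, Krtap27-1 and other members named in counts fall outside it and were named after their values were seen. KAP classes and shared 50-base stretches came from GENCODE M21 transcripts (Biopython 1.88), and promoters from RefSeq. The wild-type day 12 skin libraries, 9 in number, were left out for their epidermal markers. At 17431296 to 67342879 counts a library, counting error limits only members of a few counts.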

Additional observations from a re-analysis of the deposited data

Results flagged for a closer look

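Among 168 groups of 4 to 10 libraries looked at for 1 library standing far from the others, 6 did, where chance gives about 1 in 20. With aGr1 and MC903, replicate 2 stood above the other 3 libraries in the summed level of high glycine-tyrosine KAPs (129.4 cpm), in Krtap21-1 (10.1 cpm) and in Krtap15 (17.7 cpm). At day 1, MC903 replicate 2 stood apart in Krt35 (771 cpm) and ethanol replicate 1 in Krtap4-2 (502 cpm). At wild-type day 8, cohort A ethanol replicate 2 stood apart in Krtap15 (5337 cpm), and it also had the highest summed level of all skin libraries.

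The MC903 effect differed between BLT1.KO and wild-type mice in 9 of 76 members by the interaction test, all higher in BLT1.KO mice. Of all genes, 4.35% had a higher and 2.6% a lower effect. With cohort B alone as the reference 2 members differed, and genotype cannot be told apart from the low level in ethanol-treated BLT1.KO skin. Members were also counted outside skin. Of 65 libraries labelled trigeminal ganglion, a tissue without follicles, 22 had over 100 cpm of members (10 of 31 ethanol and 12 of 34 MC903 libraries), while 27 spinal cord libraries had 2.28 to 4.40 cpm. Of the 22, 7 are labelled wild-type day 12 (173 to 20557 cpm) and had 1210 to 19156 cpm of Krt5 and Krt14, which goes against their tissue label, as 6 of the 9 skin libraries of that label go against theirs with 0.758 to 1.56 cpm. Whether these labels are exchanged was not tested. Without wild-type day 12, 15 of 56 libraries remain over 100 cpm, and these had 151 to 2901 cpm of members and 11.8 to 122.6 cpm of Krt5 and Krt14.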

How the results depend on the processing

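Among the 49 calls of named members, no fold change changed its sign under any alternative run. All 242 values of these calls under other tools, scalings and filters stayed on their side of the threshold. Signs of the other called members were not checked in this way. Counts of calls moved more. DESeq2 gave 21 members higher at day 1 (4386 of all genes called in either direction), 33 lower at day 2 (280) and 1 higher at day 5 (5274). It gave 70 lower at wild-type day 8 (7472), 2 lower with PBS (2116) and 2 higher in BLT1.KO mice (8600). In TSLPR.KO mice at day 12 it gave 30 lower (4040). In the interactions it gave 8 lower for aGr1 (2515) and 20 higher for BLT1.KO mice (3155). Without a filter the counts were 1 at day 5 (3747 of all genes) and 1 with PBS (1342). In TSLPR.KO mice they were 1 at day 8 (1401) and 15 at day 12 (2682). At wild-type day 8, cohort A alone gave 75 and cohort B alone 8, and cohort B as the reference left 2 members in the BLT1.KO interaction. Only at day 2, with 2 pairs, were all correlations of same-numbered samples over 0.1, and with so few pairs pairing is not settled in any comparison. A replicate block gave 74 at day 2 (876 of all genes called), 2 at day 5 (3481) and 44 with aGr1 (6872). In TSLPR.KO mice the block gave 30 at day 8 (1272) and 1 at day 12 (548). At day 2 and in TSLPR.KO mice at day 8, MC903 replicate 3 has no ethanol library of its number. The block estimates there rest on 2 pairs, which leave little to judge the spread by, so these counts are not those of a settled paired design. The cause of these moves was not tested.

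Leaving out 1 library at a time gave 3 to 67 calls at day 1, 0 to 1 at day 2, 0 to 1 at day 5, 11 to 67 at wild-type day 8, 0 to 3 with PBS, 56 to 73 with aGr1, 1 to 25 in BLT1.KO mice, 0 to 11 and 0 to 23 in TSLPR.KO mice at day 8 and day 12, and 0 to 10 (aGr1), 0 to 0 (TSLPR.KO) and 2 to 37 (BLT1.KO) in the interactions. Of the named calls, 366 of these values kept the threshold and the rest missed it, as did 13 under the block (29 kept it) and 16 with 1 cohort or another reference (27 kept it). Where this left 1 library in an arm (day 2 ethanol, PBS MC903, TSLPR.KO ethanol at day 8), that library was taken to vary like the others. The median spread of the members was 1.42 with 1 added in place of 0.5, 1.52 without TMM and 1.48 without near-identical copies.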

Other observations

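Genes of the bulge and germ of the follicle, where stem cells of the resting follicle sit, were called in 6 of the 9 comparisons, each time lower with MC903. They were 8 of 8 at day 1 (7.47% of all genes lower), 3 of 8 at day 5 (6.78%), 4 of 8 at wild-type day 8 (11.2%), 3 of 8 with aGr1 (17.5%), 4 of 8 in BLT1.KO mice (14.6%) and 4 of 8 in TSLPR.KO mice at day 12 (4.62%). In edgeR 0 of 8 were called at day 2, with PBS and in TSLPR.KO mice at day 8, with 6, 2 and 4 at an unadjusted p under 0.05.

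Of 7 genes of the sebaceous gland, which opens into the follicle, 3 were lower at day 1 (7.47% of all genes were lower), 1 was lower at day 5 (6.78%) and 5 were lower in BLT1.KO mice (14.6%). At wild-type day 8 3 were higher (12.2% of all genes were higher) and 1 lower (11.2% were lower), with PBS 2 were higher (3.26%), with aGr1 2 were higher (15.1%) and 2 lower (17.5%), and in TSLPR.KO mice at day 12 3 were higher (5.41%). None passed at day 2 or in TSLPR.KO mice at day 8 in edgeR, with 0 and 2 at an unadjusted p under 0.05.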
